A study of Homo sapiens with 4 samples.

Results

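The major histone gene cluster on the short arm of chromosome 6, at 6p22, was examined for contact with the nuclear lamina in 2 human prostate cancer cell lines. Its members were the 48 bins of 40 kb that overlap 26000000 to 27900000 of chromosome 6 in hg19, out of 71569 bins measured in both. The cluster was split at 26300000 and 27090000 into a first histone block of 8 bins, a gap without histone genes of 19 bins and a second histone block of 21 bins, and 25 bins (1 Mb) on each side served as flanks. The members were set by position and not by their lamin B1 values, though earlier results of these data were known when the region was chosen. All 48 had a value in both lines. Lamin B1 was mapped by chromatin immunoprecipitation and sequencing (ChIP-seq). Both lines, LNCaP (labelled prostate adenocarcinoma) and VCaP (labelled bone metastatic prostate cancer), are established. No drug or genetic treatment is named in the labels: the cells were grown in medium with fetal bovine serum, RPMI for LNCaP and DMEM F12 for VCaP, and fixed with formaldehyde. There was 1 lamin B1 and 1 input library per line, so a difference between the lines cannot be told apart from one between media or single libraries. The deposited values are log2 ratios of lamin B1 over input, 1 table per line, so no difference here has a replicate check and no p-value is given. Read numbers were not analysed here, so the depth behind the values is unknown.

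Lamin B1 is a filament protein of the lamina, the protein mesh under the inner nuclear membrane. Chromatin that lies against the lamina is mostly gene-poor and little transcribed. The cluster at 6p22 holds most of the replication-dependent histone genes. They encode the core histones H2A, H2B, H3 and H4, around which DNA is wrapped, and the linker histone H1. Their transcription rises in S phase at nuclear sites called histone locus bodies, and their mRNAs end in a stem-loop and carry no poly(A) tail.

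In the RefSeq gene table of GRCh38, used here for names and order only, 55 histone genes of chromosome 6 fell into 4 runs parted by 10 or more other genes. One run was a pair, H2AC1 and H2BC1, which lies among the SLC17A solute carrier genes and was not assigned to an interval. The H1-1 to H4C8 run held 32 genes: 5 for H1, 4 for H2A, 8 for H2B, 7 for H3 and 8 for H4. HFE, a regulator of iron uptake, is inside that run. The H2BC11 to H2AC12 run held 5 genes, and the H2BC13 to H2BC17 run held 16, with 1 for H1, 5 for H2A, 4 for H2B, 3 for H3 and 3 for H4. Between H4C8 and H2BC11 the table lists 84 other genes, of which 47 are tRNA genes and 9 are protein-coding. Of these 9, 6 are butyrophilins (BTN3A2, BTN2A2, BTN3A1, BTN3A3, BTN2A1 and BTN1A1), membrane proteins of the immunoglobulin superfamily. Between H2AC12 and H2BC13 it lists 77, of which 51 are tRNA genes and 5 are protein-coding, among them PRSS16, a thymic protease, and the zinc finger genes ZNF391 and ZNF184. The gap without histone genes is the stretch with the butyrophilin genes. The H1-1 to H4C8 run lies to its left, and the runs from H2BC11 and from H2BC13 lie to its right. Since the table and the lamin B1 values are of different builds, no gene was placed in a single bin.

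The promoters of the histone genes were searched for motifs. Of the 55 genes, 50 had a promoter in the RefSeq table of GRCh38.p14. H4C1, H4C3, H3C11, H3C12 and H2AC12 had none in it. The 250 bases before each start were searched on both strands for the TATA box TATAAA, the CCAAT box CCAAT and the octamer ATTTGCAT. A TATA box was found in 33 of the 50 (66.0%), against 11.1% of all 27305 promoters. A CCAAT box was found in 43 (86.0%), against 33.0%. The octamer was found in 22 (44.0%), against 1.66%. By block, the TATA box was in 18 of 30 promoters of the H1-1 to H4C8 run and 13 of 18 of the runs right of the gap, the CCAAT box in 25 and 16, and the octamer in 12 and 8. The promoters of H2AC1 and H2BC1, which are in neither count, had all 3. The motifs were unevenly spread over the histone types: the octamer was in 12 of 15 H2B and 9 of 11 H2A promoters, in 1 of 8 H3 promoters and in 0 of 10 H4 and 0 of 6 H1 promoters. The CCAAT box was in every promoter of the other types and in 3 of 10 H4 promoters. The table gives 2 starts for 4 of the genes (H2BC5, H2BC12, H3C4 and H3C6), and the first was used. The 1 H3 promoter with an octamer was the first of H3C4, which is the window of H2AC7. With the last start of each gene, counted after seeing the data, 21 of 50 promoters and 0 of 8 H3 promoters had the octamer. Promoters of neighbouring genes are not all independent. In 9 pairs of neighbours, an H2A and an H2B gene are transcribed away from each other with overlapping windows. A match is a run of letters and not a measured binding site.

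The 150 bases before the start are shown for 1 gene of each type from the run of the first block, the earliest in the table with a promoter, and for H2BC11 and H2AC11, the divergent pair at the left end of the second block's runs. They run 5′ to 3′ in the direction of the gene (GRCh38.p14), with the letters of the 3 motifs on either strand in capitals. H3C1 and H2AC11 are on the plus strand and the others on the minus strand.

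H1-1: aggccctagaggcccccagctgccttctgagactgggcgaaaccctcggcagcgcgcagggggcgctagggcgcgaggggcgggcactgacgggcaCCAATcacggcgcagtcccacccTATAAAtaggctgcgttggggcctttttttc
H3C1: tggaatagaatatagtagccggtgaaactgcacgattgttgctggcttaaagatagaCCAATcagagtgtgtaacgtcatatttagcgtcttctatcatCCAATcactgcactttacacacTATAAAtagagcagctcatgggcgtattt
H4C2: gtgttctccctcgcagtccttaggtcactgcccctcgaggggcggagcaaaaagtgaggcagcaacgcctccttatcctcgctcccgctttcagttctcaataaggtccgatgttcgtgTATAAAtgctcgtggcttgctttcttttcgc
H2AC4: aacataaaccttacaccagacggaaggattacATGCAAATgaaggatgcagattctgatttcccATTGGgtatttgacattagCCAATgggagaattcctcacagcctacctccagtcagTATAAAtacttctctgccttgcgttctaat
H2BC3: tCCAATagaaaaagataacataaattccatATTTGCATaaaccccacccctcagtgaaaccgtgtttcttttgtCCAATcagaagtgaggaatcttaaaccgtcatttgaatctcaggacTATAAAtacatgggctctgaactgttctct
H2BC11: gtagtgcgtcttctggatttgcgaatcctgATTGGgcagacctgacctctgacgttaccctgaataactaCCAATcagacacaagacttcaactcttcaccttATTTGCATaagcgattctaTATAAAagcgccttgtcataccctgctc
H2AC11: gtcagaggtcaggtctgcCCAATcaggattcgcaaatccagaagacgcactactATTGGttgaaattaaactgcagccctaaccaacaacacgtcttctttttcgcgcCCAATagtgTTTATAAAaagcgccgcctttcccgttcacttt

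In these sequences H2AC4 and H2BC3 carry all 3 motifs, H1-1 and H3C1 have the CCAAT and TATA boxes without the octamer, and H4C2 has the TATA box alone. In the printed window of H2AC11 no octamer occurs, while that of its partner H2BC11 has one. H2AC11 also has TATAAA on both strands, overlapping in the run TTTATAAA.

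No bin of the cluster was in the lamina-associated state in either line. The authors deposited 1 of 2 labels per bin from a hidden Markov model, AD and iAD. AD, the label of the bins with the higher enrichment, is called associated here. Over all bins with a value, 37.8% were associated in LNCaP and 44.4% in VCaP, whereas 0 of the 48 cluster bins and 0 of the 50 flanking bins were in either line. On chromosome 6 as a whole the associated share was 44.6% in LNCaP and 30.3% in VCaP. The cluster thus lay inside a longer stretch outside the associated state. In LNCaP this stretch ran from 24360001 to 29040000, 4.68 Mb or 117 bins, and ranked 2 by length among 65 such stretches on chromosome 6. In VCaP it ran from 20560001 to 29440000, 8.88 Mb or 222 bins, and ranked 4 among 59. Over the genome it ranked 90 among 951 stretches in LNCaP and 27 among 1202 in VCaP. The median stretch of the genome had 23 bins in LNCaP and 13 in VCaP.

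The nearest associated domains differed between the lines. To the left they were 0.56 Mb long in both, from 23800001 to 24360000 in LNCaP (mean log2 enrichment 0.33) and from 20000001 to 20560000 in VCaP (0.31). To the right, LNCaP had a domain of 0.40 Mb from 29040001 to 29440000 (0.27). VCaP had one of 2.84 Mb from 29440001 to 32280000 (0.65), on the side where the major histocompatibility genes lie. The right-hand domain thus ended in LNCaP at the position where that of VCaP began.

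The level differed between the lines. The mean log2 enrichment over the 48 bins was -0.36 in LNCaP (noise SE 0.038) and -0.043 in VCaP (noise SE 0.056). The noise SE is taken from bins 3 apart in the same library, and describes the library and not the cell line. Against this, the median of all bins was 0.058 in LNCaP and 0.19 in VCaP, and that of the bins outside the associated state was -0.10 and -0.065. In LNCaP 45 of the 48 cluster bins were below the median of all bins, and in VCaP 34 were. Among 1482 adjacent windows of 48 bins tiled over the genome, 5.33% had a lower mean than the cluster in LNCaP and 23.4% had a lower mean in VCaP. On chromosome 6 alone these were 4.60% and 34.5% of 87 windows.

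**Figure D1:**
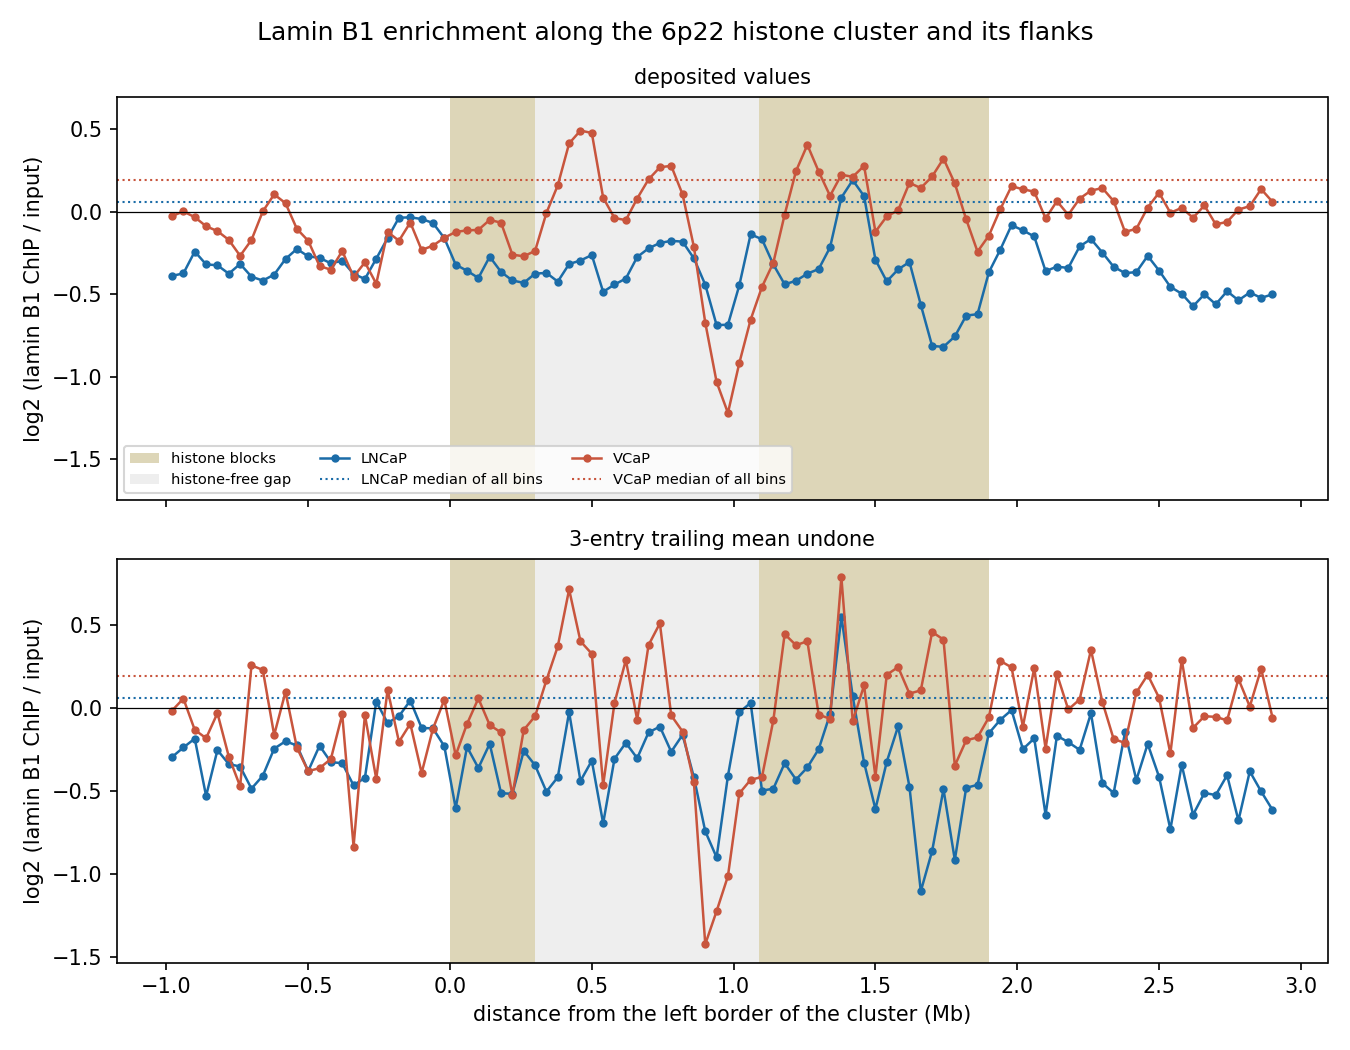
Lamin B1 enrichment (log2 of ChIP over input, y axis) in 98 bins of 40 kb, by distance in Mb from the left border of the cluster (x axis), for LNCaP and VCaP, with the deposited values above and the same values with their 3-entry average undone below. In the deposited values LNCaP stays below 0 but for 3 bins of the second block and VCaP moves around 0, and both dip near the right end of the gap.

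Enrichment over 0 was found in 3 of 48 cluster bins in LNCaP (6.25%), where 56.8% of all bins were over 0. In VCaP it was found in 23 of 48 (47.9%), against 66.9% of all bins. Both lines were below 0 in 25 of the 48 bins (52.1%), against 19.9% of all common bins. These 25 were 8 of 8 in the first block, 9 of 19 in the gap and 8 of 21 in the second block. The first block was the only one of the 3 intervals in which every bin was below 0 in both lines. This holds for the deposited values. With the 3-entry average undone, its bin from 26080001 to 26120000 was at 0.056 in VCaP. In the flanks both lines were below 0 in 29 of 50 bins (58.0%), a larger share than in the cluster. These were 21 of 25 on the left and 8 of 25 on the right.

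The first histone block, with the run from H1-1 to H4C8, was low and even in the deposited values of both lines. From left to right its 8 bins had log2 enrichments of -0.32, -0.36, -0.40, -0.27, -0.36, -0.42, -0.43 and -0.38 in LNCaP. In VCaP they were -0.12, -0.11, -0.11, -0.049, -0.066, -0.26, -0.27 and -0.24. In these deposited values the same bin was highest in both lines, 26120001 to 26160000, and the same bin was lowest, 26240001 to 26280000. With the 3-entry average undone the lines no longer shared these bins. The lowest undone bin began at 26000001 in LNCaP (-0.60) and at 26200001 in VCaP (-0.53). The highest began at 26120001 in LNCaP (-0.22) and at 26080001 in VCaP (0.056). The block mean was -0.37 in LNCaP (noise SE 0.092) and -0.15 in VCaP (0.14). Over the bins of the block the SD, 0.052 in LNCaP and 0.089 in VCaP, was the smallest of the 3 intervals in both lines. The block also has the fewest bins of the 3, 8 against 19 and 21. In VCaP the 25 bins of the right flank had a smaller SD, 0.081. Of 8936 windows of 8 bins, 7.70% had a lower mean in LNCaP and 18.4% in VCaP.

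The gap with the butyrophilin and tRNA genes was the most uneven interval in VCaP. In LNCaP its 19 bins ranged from -0.69 to -0.14, with a median of -0.32 and a mean of -0.35 (noise SE 0.060). In VCaP they ranged from -1.22 to 0.49, with a median of 0.081, a mean of -0.12 (noise SE 0.090) and 10 bins over 0. The VCaP values formed a hump in the left part and a trough in the right part. The hump peaked with 0.42, 0.49 and 0.48 in the 3 bins from 26400001 to 26520000, where LNCaP had -0.32, -0.30 and -0.26. At 0.49 the highest of these exceeded 74.5% of all VCaP bins, and it was still outside the associated state.

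The trough was present in both lines. In the 5 bins from 26880001 to 27080000, VCaP had -0.67, -1.03, -1.22, -0.92 and -0.65, and LNCaP had -0.44, -0.69, -0.68, -0.45 and -0.14. The lowest VCaP value, in the bin from 26960001 to 27000000, was higher than only 0.0655% of all VCaP bins. The lowest LNCaP value, in the bin before it, was higher than 2.02% of all LNCaP bins. With the 3-entry average undone, the 5 bins had -1.42, -1.22, -1.01, -0.52 and -0.43 in VCaP. In LNCaP they then had -0.74, -0.90, -0.41, -0.029 and 0.029. The lowest undone VCaP bin was thus the first of the 5, and LNCaP was near 0 in the last 2. An alternative chosen after seeing the data left out the 2 bins with deposited values under -0.6 in both lines. The VCaP mean of the gap then rose from -0.12 to 0.00080, and that of LNCaP was -0.31.

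The second histone block, with the runs from H2BC11 to H2AC12 and from H2BC13 to H2BC17, was as low as the rest of the cluster in LNCaP and lay near 0 in VCaP. The LNCaP mean was -0.37 (noise SE 0.057), with 3 of 21 bins over 0. The VCaP mean was 0.066 (noise SE 0.085), with 13 of 21 bins over 0. In LNCaP 5.98% of 3397 windows of 21 bins were lower, and in VCaP 37.8% were.

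Values within the second block varied along its length, and 3 stretches of 7 bins were set apart after seeing the data. In the 7 bins at its left, from 27080001 to 27360000, LNCaP had a mean of -0.33 (range -0.44 to -0.17) and VCaP of 0.030 (-0.46 to 0.41). In the 7 middle bins the means were -0.14 (-0.42 to 0.19) and 0.11 (-0.12 to 0.28). In the 7 bins at its right end, from 27640001 to 27920000, they were -0.65 (-0.82 to -0.37) and 0.060 (-0.24 to 0.32). The noise SE of such a mean was 0.098 in LNCaP and 0.15 in VCaP.

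The middle of the second block held the 3 LNCaP bins over 0. From 27360001 to 27480000 LNCaP had 0.087, 0.19 and 0.095, and VCaP had 0.23, 0.21 and 0.28. With the 3-entry average undone, the bin from 27360001 to 27400000 stood out in both lines, at 0.55 in LNCaP and 0.78 in VCaP. In the next bins the undone values were 0.068 and -0.33 in LNCaP and -0.081 and 0.13 in VCaP. The 3 deposited bins over 0 in LNCaP thus share that 1 undone bin.

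The right end of the second block held the lowest LNCaP values of the cluster. From left to right the last 7 bins had -0.56, -0.81, -0.82, -0.76, -0.63, -0.62 and -0.37 in LNCaP, and 0.14, 0.21, 0.32, 0.17, -0.045, -0.24 and -0.14 in VCaP. In LNCaP the lowest, from 27720001 to 27760000, was higher than 1.19% of all bins. In VCaP the same bin was higher than 61.3% of all bins. With the average undone, this bin was at -0.49 in LNCaP. The lowest undone LNCaP bin of the cluster was the one from 27640001 to 27680000, at -1.10.

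**Figure D2:**
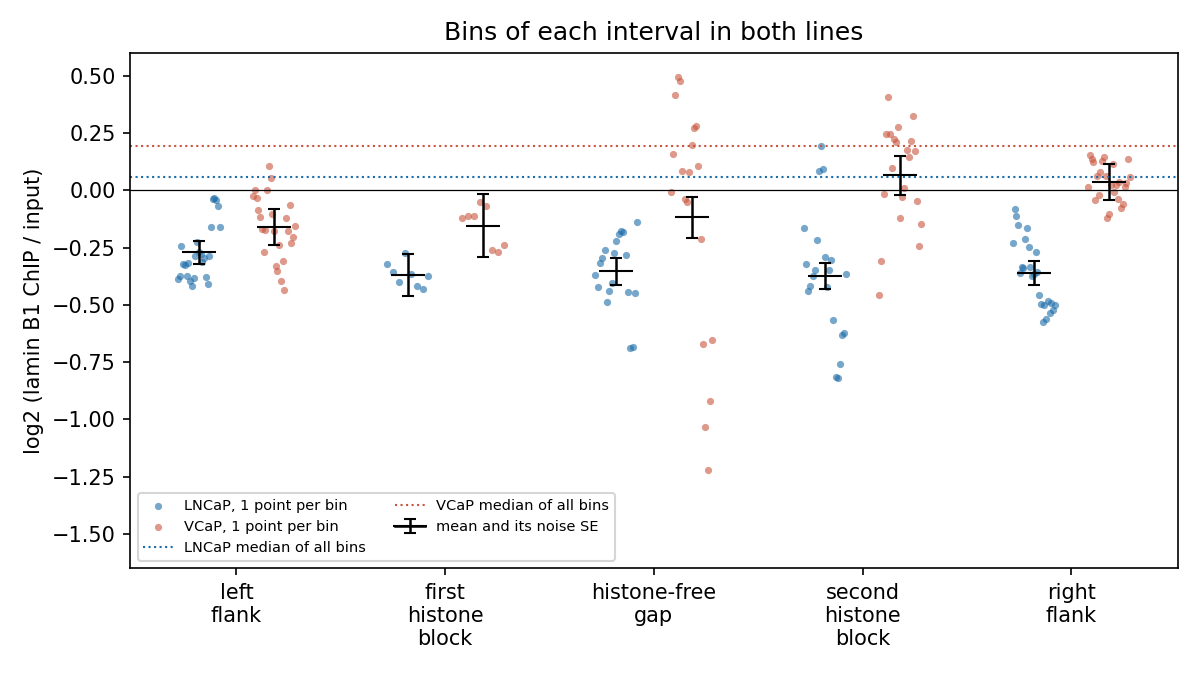
Log2 enrichment of lamin B1 over input (y axis) of every bin, by interval and line, with 1 point per bin and the mean with its noise SE as a black bar. LNCaP means lie between -0.37 and -0.27 in all 5 intervals, while VCaP means rise from -0.16 in the left flank to 0.066 in the second block.

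Within each line, the histone blocks did not differ from the gap or from flanks of 1 Mb beyond the noise. The second block also spans the 77 other genes between H2AC12 and H2BC13, against 84 between H4C8 and H2BC11. Its contrast with the gap is therefore not one of histone genes alone against other genes. The first block minus the gap was -0.014 in LNCaP (noise SE 0.11) and -0.035 in VCaP (0.16). The second block minus the gap was -0.020 in LNCaP (0.082) and 0.18 in VCaP (0.12). The first block minus the left flank was -0.097 in LNCaP (0.11) and 0.0066 in VCaP (0.16). The second block minus the right flank was -0.012 in LNCaP (0.077) and 0.030 in VCaP (0.12). With flanks of 2 Mb both LNCaP contrasts with the flanks were beyond the noise, at -0.23 (noise SE 0.099) for the first block and -0.20 (0.068) for the second. Unlike the flanks of 1 Mb, those of 2 Mb reach into associated domains of LNCaP. These domains end at 24360000 on the left and begin at 29040001 on the right. The flanks of 1 Mb had means of -0.27 and -0.16 on the left and -0.36 and 0.036 on the right, in LNCaP and VCaP.

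No flanking bin of LNCaP was over 0, and 21 of 50 of VCaP were. In the left flank LNCaP ranged from -0.42 (25320001 to 25360000) to -0.034 (25840001 to 25880000), and its last 6 bins before the cluster were -0.16, -0.036, -0.034, -0.043, -0.068 and -0.16. VCaP ranged there from -0.44 (25720001 to 25760000) to 0.11 (25360001 to 25400000). In the right flank LNCaP ranged from -0.57 (28600001 to 28640000) to -0.081 (27960001 to 28000000). VCaP stayed there between -0.12 and 0.16. All 50 flanking bins were below the median of all bins of the same line.

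The 4 borders of the intervals were compared by the median of the 5 bins after minus that of the 5 bins before. At the left border of the first block the step was -0.31 in LNCaP (noise SE 0.16) and 0.066 in VCaP (0.25). From the first block to the gap it was 0.058 in LNCaP and 0.65 in VCaP, and from the gap to the second block 0.071 and 0.90. At the right border of the second block it was 0.48 in LNCaP and 0.17 in VCaP. The 5 bins before the second block are those of the trough, from 26880001 to 27080000, so the step there is measured from the trough. The 2 inner steps of VCaP and the right step of LNCaP were beyond the noise of a mean of 5 bins. They were larger than the step at 93.7%, 98.3% and 94.5% of all positions of the same line. With medians of 3 bins the inner steps of VCaP were 0.42 and 0.61 (noise SE 0.32) and no longer beyond the noise. With the 3-entry average undone the right step of LNCaP was 0.30. It was then no longer beyond the 95% limit set by the noise SE of the deposited values, 0.16. With 5 bins of deposited values, no border had a step beyond the noise in both lines.

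VCaP was higher than LNCaP over most of the cluster. The mean VCaP minus LNCaP difference was 0.32 over the 48 bins (noise SE 0.050), and 42 of them were higher in VCaP. VCaP was higher in 58.1% of all common bins, and in 42 of the 50 flanking bins. The VCaP median of all common bins lay 0.13 above that of LNCaP, and relative to this shift the cluster difference was 0.19. On chromosome 6 the VCaP median lay below that of LNCaP, at -0.042, and relative to it the cluster difference was 0.36. Among 1482 windows of 48 bins, 70.8% had a smaller difference, and among the 87 on chromosome 6, 81.6% had.

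By interval, the difference was 0.11 in the left flank (noise SE 0.069), 0.21 in the first block (0.12), 0.24 in the gap (0.079), 0.44 in the second block (0.075) and 0.40 in the right flank (0.069). After the genome shift of 0.13 was taken off, it was -0.024, 0.080, 0.10, 0.31 and 0.26. The second block and the right flank were then beyond the noise, and the first block, the gap and the left flank were not. Relative to the chromosome 6 shift of -0.042 the differences were 0.15, 0.26, 0.28, 0.48 and 0.44, and all 5 were beyond the noise. Whether the left flank, the first block and the gap differed between the lines beyond the noise thus depended on the zero point. The noise SE comes from all bins of the genome and not from the spread within an interval. Single bins of the gap differed by -0.54 to 0.79. The first block showed VCaP higher in 8 of 8 bins, by 0.14 to 0.30, with no single bin beyond the noise of 1 bin.

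Single bins were called different where the lines were more than 0.39 apart, the 95% limit of the noise of 1 bin. VCaP was called higher in 20 of the 48 cluster bins (41.7%), against 28.0% of all common bins. LNCaP was called higher in 3 (6.25%), against 14.4%. The 20 were 9 of 19 bins of the gap and 11 of 21 of the second block, and the 3 were all in the trough of the gap. In the flanks VCaP was called higher in 2 of 25 bins on the left and 14 of 25 on the right.

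In the deposited values, the largest difference of the cluster was 1.14, in the bin from 27720001 to 27760000. LNCaP had -0.82 there and VCaP had 0.32. With the average undone, that bin differed by 0.90, with -0.49 in LNCaP and 0.41 in VCaP. The largest undone difference was 1.32, in the bin from 27680001 to 27720000. The right end of the second block had a mean difference of 0.71 (noise SE 0.13), against 0.36 at its left and 0.25 in its middle. The largest difference in the other direction was -0.54, in the bin from 26960001 to 27000000 of the gap, with -0.68 in LNCaP and -1.22 in VCaP. Both lines were low in that bin, and VCaP was the lower. With the average undone, the largest difference in this direction was -0.68, in the bin from 26880001 to 26920000.

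**Figure D3:**
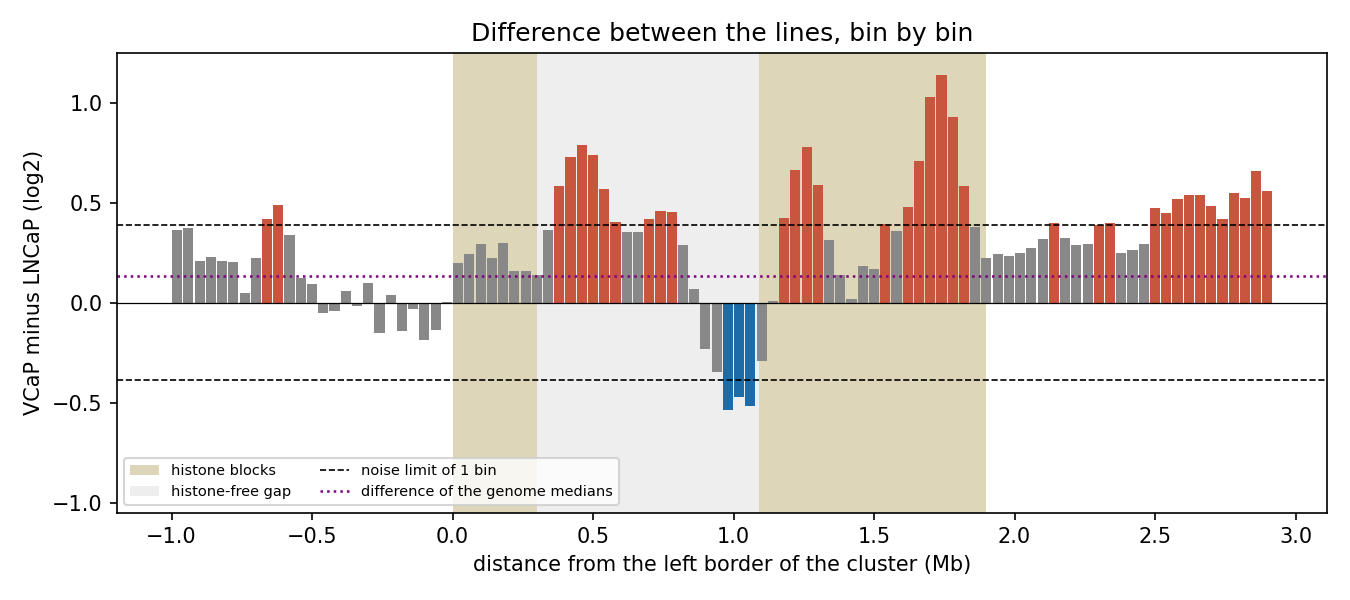
VCaP minus LNCaP difference in log2 enrichment (y axis) for each bin, by distance in Mb from the left border of the cluster (x axis), with the noise limit of 1 bin at 0.39 dashed and the difference of the genome medians, 0.13, dotted. Bars beyond the limit are coloured red where VCaP is higher and blue where LNCaP is higher, and the first block has none.

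Pearson r between the lines differed between the intervals, over few bins. Across the 48 bins it was 0.26, given as a description, as neighbouring bins share averaged entries and all bins share the libraries. Over all 71569 common bins it was 0.28. It was 0.64 over the 19 bins of the gap, 0.74 over the 8 of the first block and -0.0027 over the 21 of the second block. With the average undone, these were 0.57, 0.59 and 0.35, and 0.39 over the cluster.

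**Figure D4:**
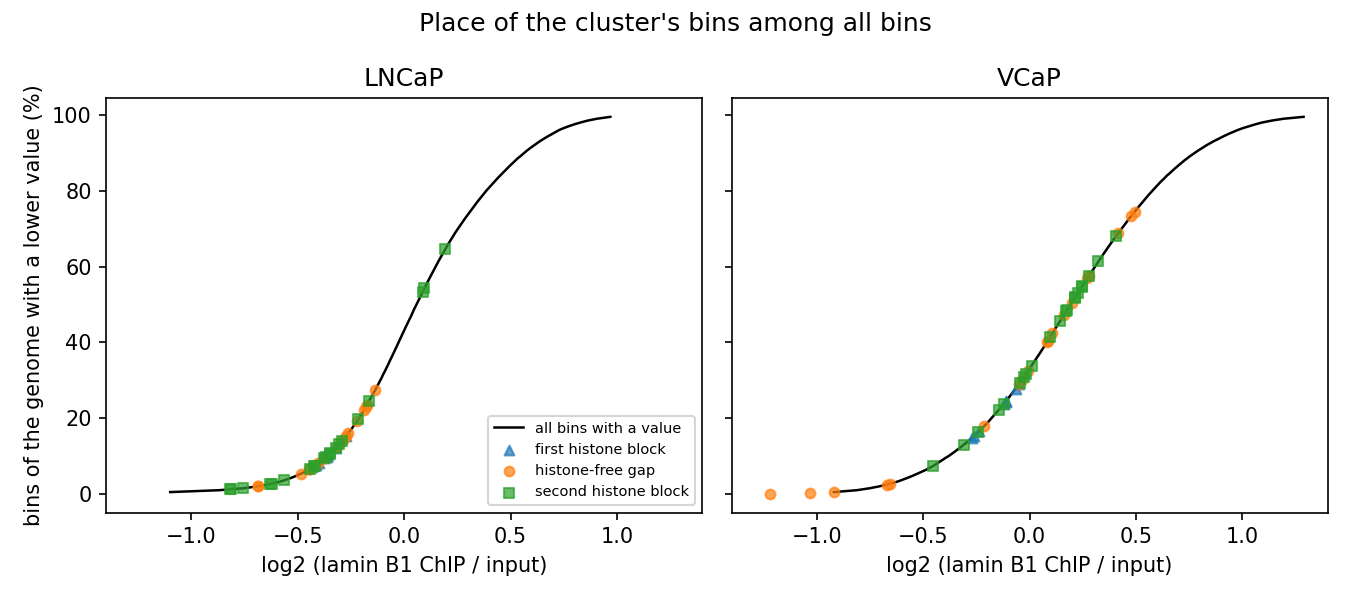
Share of all bins with a lower value (y axis, %) against log2 enrichment (x axis) in LNCaP and VCaP, with the bins of the 3 intervals marked on the curve of all bins, which is drawn without its extreme ends. LNCaP bins gather at the low end, with 45 of 48 below the median of all bins, while VCaP bins spread from 0.0655% to 74.5%.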

How the data were processed

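Lamin B1 ChIP and input libraries of LNCaP and VCaP were grouped by the labels, 1 library per group. For each 40 kb bin the authors deposited a log2 ratio of lamin B1 over input, and a state; hg19 and STAR are named in the submitters' processing notes without a role. The scaling, aligner settings and filters are not given in the sources used here. Positions are counted from 1.

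The deposited log2 values behave as trailing means of 3 entries: undoing this mean brought the median absolute value of the 194 and 212 entries wider than a bin from 0.21 to 0.0041 in LNCaP and from 0.33 to 0.0090 in VCaP. It moves signal about 1 bin to the right and makes neighbours dependent.

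A bin went to the interval holding most of it, ties to the histone block. The noise SD of a bin came from bins 3 apart (0.15 in LNCaP, 0.23 in VCaP, 0.20 for their difference). A mean counted 1 separate value per 3 bins. Values beyond the 95% normal limit of their noise are called beyond it. Runs of histone genes were parted at 10 or more other genes. Named were the extreme bins of each interval and line, the largest differences, histone genes by symbol, and genes and families beside their runs. Members and lists were chosen with earlier results of these data known. Alternatives covered the average, interval borders, zero point, scale, state, windows and flanks. The code was checked on simulated data. Values were computed in Python 3.11.15 with pandas 2.3.3 and numpy 2.4.6, and drawn with matplotlib 3.10.9.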

Additional observations from a re-analysis of the deposited data

Results flagged for a closer look

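In 4 contrasts, of which 2 are within the cluster and 2 are with its flanks, the values of the lines had opposite signs. There was 1 library pair per line, so whether the lines differ in them was not tested. The second block minus the gap was -0.020 in LNCaP and 0.18 in VCaP, and the second block minus the first was -0.0063 and 0.22. The first block minus the left flank was -0.097 and 0.0066, and the second block minus the right flank was -0.012 and 0.030. None of these values was beyond its own noise, so none shows a direction.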

How the results depend on the processing

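Alternatives gave 157 values for 42 results. Of these, 131 were within 1 noise SE of the value they replace (counts within 1.5 times), 26 moved by more, and 0 reversed a value that was beyond the 95% noise limit. Of 128 levels, contrasts, differences and steps, 8 crossed that limit. Beyond it came the first block minus the left flank and the second block minus the right flank in LNCaP with flanks of 2 Mb, and the first-block difference between lines centred on chromosome 6 medians (0.26). No longer beyond it were the gap difference centred on genome medians or quantile normalized, both inner VCaP steps with medians of 3 bins (0.42 and 0.61), and the right LNCaP step with the average undone. Depth is unknown, so the noise between bins is the only limit on single bins. No paired analysis was possible because a group holds only 1 library.

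Calling bins over 0 associated gave 3 cluster bins in LNCaP and 23 in VCaP, and calling bins over the line's own median gave 3 and 14. A threshold of 0.5 and leaving out straddling bins gave 0. With the zero points set to the genome medians, the difference between lines was 0.19 for the cluster, 0.080 for the first block, 0.10 for the gap and 0.31 for the second block. After centring and scaling it was 0.24 for the cluster and 0.35 for the second block, and after quantile normalization 0.26 for the cluster and 0.15 for the gap. As a median over bins it was 0.36 for the gap, where the VCaP level changed from -0.12 to 0.081. Without the 2 bins under -0.6 in both lines, chosen after seeing the data, that level was 0.00080.

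With flanks of 2 Mb, the first block minus the left flank was -0.23 in LNCaP, and the second block minus the right flank was -0.20 in LNCaP and -0.15 in VCaP. These wider flanks include bins of the nearest associated domains, on both sides in LNCaP and on the right in VCaP. With flanks of 500 kb, the second block minus the right flank was -0.13 in LNCaP. Among windows of chromosome 6 only, 34.5% were lower than the cluster in VCaP, 3.52% lower than the second block in LNCaP and 50.8% in VCaP. The cause of these changes was not tested. The VCaP step into the second block was 1.39 with the average undone, which also changed the step at its right border to 0.30 in LNCaP and 0.42 in VCaP.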
